A study of Homo sapiens with 16 samples.

Results

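The genes described here are the 4 mouse Fc gamma receptor genes, Fcgr1, Fcgr2b, Fcgr3 and Fcgr4, together with Fcer1g, the signalling chain that the activating receptors share. They were taken by name, as 5 of the 32285 genes counted in each cell. Fc gamma receptors sit on the surface of white blood cells and bind the constant part of IgG antibodies, so that an antibody on a tumor cell can be recognised by a macrophage or an NK cell. Fcgr1 encodes the high-affinity receptor (CD64), Fcgr3 a low-affinity receptor, and Fcgr4 a receptor of intermediate affinity that is the mouse counterpart of human CD16a. These activating receptors signal through the ITAM motif of Fcer1g. Fcgr2b is the inhibitory receptor: its own ITIM motif recruits phosphatases that oppose ITAM signalling, and it is the Fc gamma receptor of B cells. The balance of activating and inhibitory receptors is known as a setting point of antibody-dependent phagocytosis in macrophages.

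The cells came from T22 and T127 mammary tumors of LPA1 transgenic origin, transplanted into the mammary fat pad of female FVB mice bought at 6 weeks of age. In the long-term experiment, tumors grown as single strain or co-transplanted transplants received vehicle or olaparib, a PARP inhibitor, at 50 mg/kg daily for 20 days, and were sequenced in 8 pools. In the short-term experiment, T22 and T127 tumors received vehicle or the same dose of olaparib for 4 or 8 days and were sequenced in 4 pools of each model. Each pool mixed tagged tumors with and without olaparib, and the cells could not be traced back to single tumors with the files used. Vehicle and olaparib could therefore not be compared, every group was counted as 1 sample, and no p-value was computed. Pool ranges show only how far captures of mixed tumors differed, and all intervals below are 95% intervals that cover counting error only.

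Levels are unique molecular identifiers (UMIs, each standing for 1 captured RNA molecule) of a gene in every 1000000 UMIs of all genes (CPM), summed over the cells of a deposited cell label. Totals per pool ran from 34755906 to 55600377 UMIs. Of the long-term pools, pools 1, 2 and 3 shared many cell barcodes, 987 to 3939 for each pair, against 1 to 8 for the other 25 long-term pairs, so only the deepest copy of a barcode was used, which left 25723 of 30845 cells. Of the 5122 shallower copies removed, 4066 carried the label CD16-CDKN1C, and for 3172 of these the deepest copy had another monocyte or macrophage label. Labels with fewer than 50 cells in a group are not described there. This leaves out B cells in both short-term groups, plasmacytoid dendritic cells (pDC) in T22 and Macro-M1 in T127.

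Long-term monocytes and macrophages carried all 4 receptors and high levels of the shared chain, and Macro-M2 cells had the highest level of every member. In the 3567 Macro-M2 cells, Fcgr1 stood at 425 CPM (interval 419 to 432; pools 399.5 to 448). Fcgr3 stood at 524 CPM (517 to 531, with pools of 502 to 552), Fcgr4 at 86.6 CPM (83.8 to 89.5, with pools of 74.5 to 99.8) and Fcgr2b at 619.8 CPM (612 to 628, with pools of 567 to 666). Fcer1g reached 4244 CPM (4224 to 4264; pools 3695 to 4636). The Fcgr3 and Fcgr2b pools of Macro-M2 lay above all pools of Macro-M1, Macro-others and CD16-CDKN1C. For Fcgr2b they overlapped those of the next labels, Macro-MKI67 (up to 589 CPM), CD14-PF4 and CD14-IL1B, and for Fcgr3 those of CD14-PF4. For Fcgr1, Fcgr4 and Fcer1g the pool ranges of neighbouring labels overlapped.

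The other macrophage labels followed closely in the long-term pools. Macro-M1 held 361 CPM of Fcgr1, 393 of Fcgr3, 75.3 of Fcgr4 and 416 of Fcgr2b. Macro-others held 371, 383, 67.0 and 363 CPM of the same genes in the same order, and CD16-CDKN1C held 374, 422, 68.9 and 434 CPM. The proliferating label Macro-MKI67 was lower for Fcgr1 (287 CPM) and Fcgr4 (40.7 CPM) but not for Fcgr2b (446 CPM). The 2 labels named for CD14 had less Fcgr1 (159 CPM in CD14-PF4 and 139.5 CPM in CD14-IL1B), while their Fcgr2b (439 and 436 CPM) lay within the range of the macrophage labels.

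**Figure D1:**
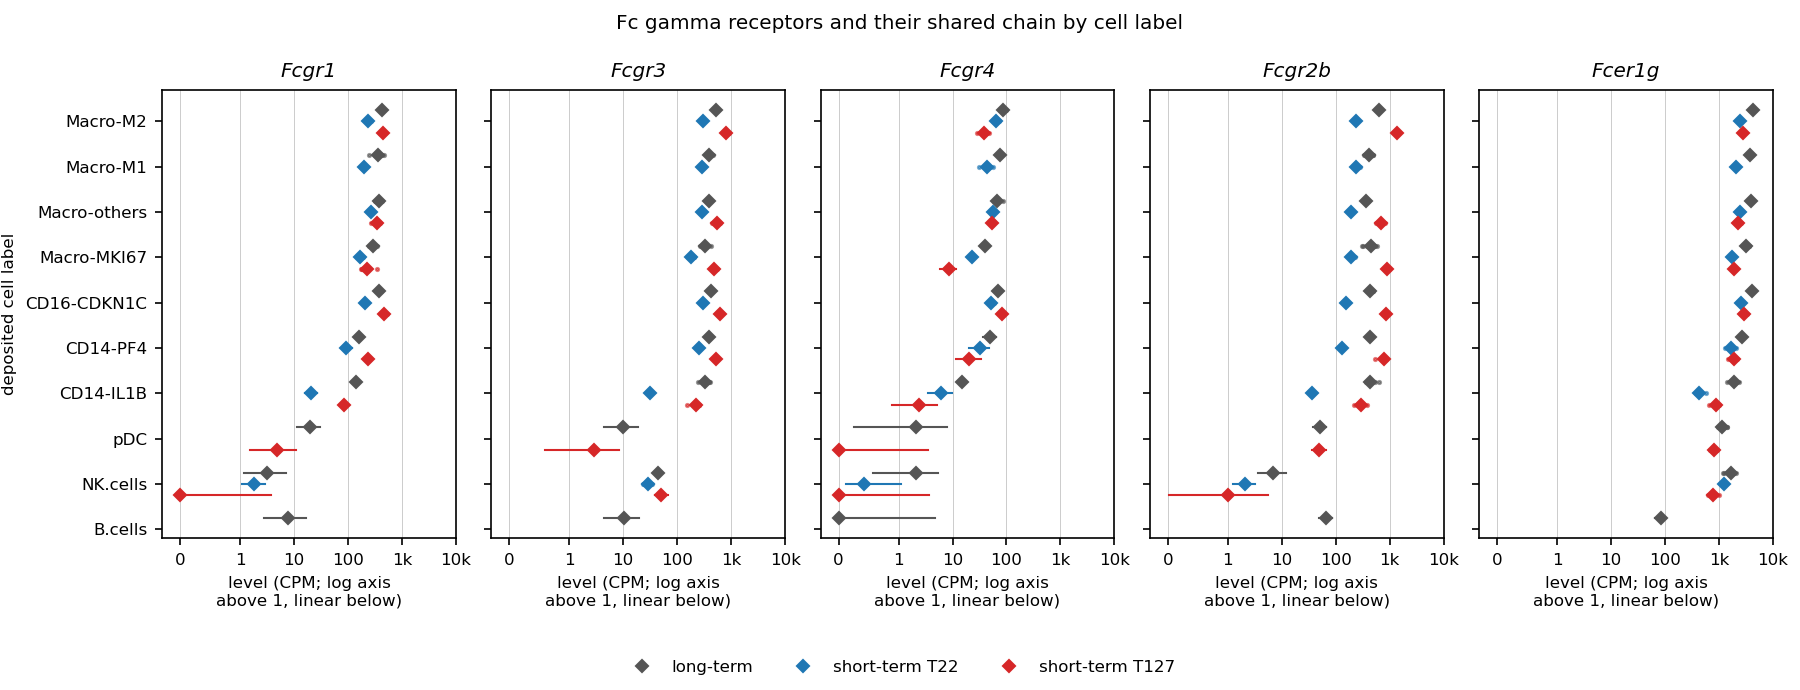
Level of each gene (CPM, horizontal axis, log scale above 1) in each deposited cell label of the long-term, short-term T22 and short-term T127 groups. Diamonds are the summed level, lines its 95% counting interval and small dots the pools where each held at least 50 UMIs of the gene. Fcgr2b in Macro-M2 spans 240.4 CPM in T22 to 1349 CPM in T127, and NK cells show Fcgr3 with little of the other receptors.

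The activating share, that is the UMIs of Fcgr1, Fcgr3 and Fcgr4 out of those plus Fcgr2b, ordered the cell classes. It sets cell classes side by side and not genes, since 3' capture and the counting of introns can weigh genes differently. Over all long-term monocytes and macrophages it was 65.1% (interval 64.9 to 65.3; pools 64.6 to 66.3) of 190336 receptor UMIs. Macro-others had the highest share of the myeloid labels at 69.3% (68.9 to 69.7; pools 68.3 to 70.2), followed by Macro-M1 and CD16-CDKN1C at 66.6% each. Macro-M2, with the most Fcgr2b, had 62.6% (62.2 to 62.9; pools 61.5 to 64.3), which lies below every pool of Macro-others. Macro-MKI67 had 59.6% (pools 54.3 to 68.2) and CD14-IL1B 52.3% (pools 44.0 to 56.9), the lowest of the 7 myeloid labels.

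NK cells stood above this range, and B cells and pDC below it. T cells, taken as background, had 69.6% (63.0 to 75.6) of 217 UMIs, beside 69.3% in Macro-others. In the short-term groups T cells had 83.3%, with intervals of 77.5 to 88.2 (204 UMIs, T22) and 58.6 to 96.4 (18 UMIs, T127). The T127 interval overlapped that of T127 NK cells (89.7 to 99.95). NK cells had 87.7% activating UMIs (interval 79.9 to 93.3) of 106, mostly Fcgr3 (83 UMIs). B cells had 21.5% (12.3 to 33.5) of 65 UMIs and pDC 38.2% (27.2 to 50.0) of 76, so both carried more inhibitory than activating UMIs. The pDC share was 27.0% without pool 6, which held most of the Fcgr1 UMIs, and in T127 pDC it was 13.3% (5.94 to 24.6) of 60 UMIs. These shares rest on few UMIs, and without B cells of under 3000 UMIs, which are 265 of the 309, the B cell share became 7.14%.

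**Figure D2:**
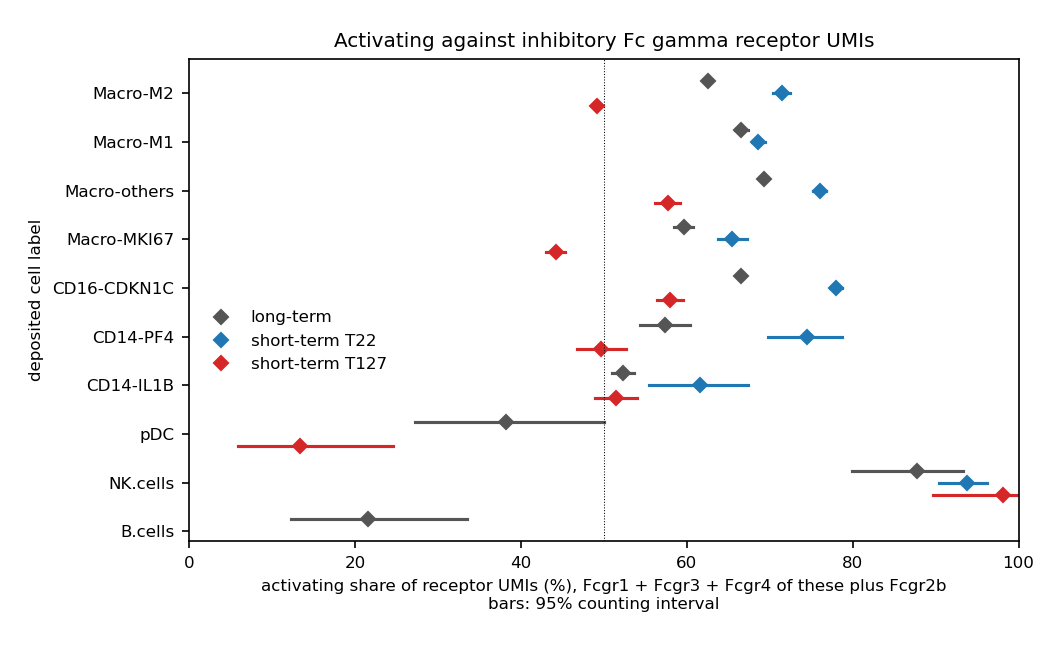
Activating share of Fc gamma receptor UMIs (%, horizontal axis) by deposited cell label, with 95% counting intervals as bars and 50% as a dotted line. In every myeloid label measured in both models the T22 diamond lies to the right of the T127 diamond, NK cells lie above 85% and B cells and pDC below 50%.

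The short-term pools allowed T22 tumors and T127 tumors to be set side by side within a label. Fcgr2b was higher in T127 than in T22. In Macro-M2 cells the 4 T22 pools held 225, 241, 248 and 251 CPM of Fcgr2b and the 4 T127 pools held 1293, 1356, 1373 and 1378 CPM, so that the pool ranges lay apart. The summed levels were 240.4 and 1349 CPM, a 5.61-fold difference (interval 5.37 to 5.87). The median depth of these cells was similar, 13221 UMIs in the 670 T22 cells and 11286 in the 1174 T127 cells.

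Fcgr3 and Fcgr1 were also higher in T127 Macro-M2 cells, by less. The T22 pools held 288, 299, 306 and 306 CPM of Fcgr3 and the T127 pools 762.5, 788.5, 799 and 923.5 CPM, which gives a 2.71-fold difference (interval 2.60 to 2.83). Fcgr1 ran from 216 to 263 CPM in T22 pools and from 393 to 489 CPM in T127 pools, a 1.90-fold difference (1.81 to 2.00). Neither pair of pool ranges overlapped.

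Fcgr4 went the other way in Macro-M2. Its T22 pools held 57.4, 60.1, 61.6 and 73.5 CPM and its T127 pools 29.0, 35.4, 43.0 and 47.2 CPM, so every T22 pool was above every T127 pool. The summed level was 1.62-fold higher in T22 (interval 1.44 to 1.83). Fcer1g differed little in size, with 2489 CPM in T22 and 2778 CPM in T127, although its pools (2431 to 2566 and 2582 to 2900 CPM) did not overlap.

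Of the 5 members in Macro-M2, Fcgr2b and Fcgr3 passed a 2-fold difference toward T127 and none passed it toward T22. Among the 7381 genes of at least 10 CPM in this label (mean of both models), 6.94% passed 2-fold toward T127 and 5.03% toward T22. Only 1.30% of these genes had a log2 ratio further toward T127 than Fcgr2b (96 genes), against 3.96% for Fcgr3 and 7.80% for Fcgr1. Model, pool and capture cannot be told apart here, and fewer cells of a subtype within a label and less RNA per cell cannot be told apart in a summed level. Marker lists moved along with these differences: 5 classical monocyte genes summed to 2365 CPM in T127 Macro-M2 (2099 to 2613 over pools) and 730.2 CPM in T22 (644 to 807), and 6 macrophage genes to 8925 CPM in T127 (7765 to 9917 over pools) and 13665 CPM in T22 (12532 to 14561). Neutrophil genes (6) summed to 214 CPM in T127 Macro-M2 (85.5 to 391) and 23.8 CPM in T22 (14.2 to 44.0), epithelial genes (2) to 156 and 53.8 CPM, and endothelial genes (2) to 34.6 and 9.55 CPM. All genes of these lists were detected in both models. Their part in the receptor differences was not tested.

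The Fcgr2b difference was present in each of the 6 myeloid labels that both models held. It was 5.44-fold (interval 5.11 to 5.78) in CD16-CDKN1C, 4.66-fold (4.35 to 5.00) in Macro-MKI67, 3.56-fold (3.35 to 3.77) in Macro-others, 6.16-fold (4.96 to 7.72) in CD14-PF4 and 7.98-fold (6.48 to 9.90) in CD14-IL1B, always with the higher level in T127. In CD16-CDKN1C the T22 pools held 148 to 164 CPM and the T127 pools 745 to 947.5 CPM. Marker lists moved here too: in CD16-CDKN1C classical monocyte genes summed to 3166 CPM in T127 and 426 CPM in T22 and conventional dendritic genes to 264.5 and 88.3 CPM, and in Macro-MKI67 neutrophil genes summed to 116 and 6.85 CPM, epithelial genes to 438 and 188 CPM and macrophage genes to 6134 and 10405 CPM. In CD14-IL1B epithelial genes summed to 647 CPM in T127 (461 to 782 over pools) and 170.5 CPM in T22 (122 to 230.1), and macrophage genes to 646 and 1563 CPM. The part of these genes in the Fcgr2b ratios was not tested. With the 7 myeloid labels summed, T127 held 1059 CPM and T22 196 CPM of Fcgr2b, a 5.39-fold difference (5.28 to 5.51).

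The other members were less uniform. Fcgr3 was higher in T127 by 1.86-fold (Macro-others) to 7.03-fold (CD14-IL1B) and Fcgr1 by 1.29-fold (Macro-others) to 4.07-fold (CD14-IL1B), but the pool ranges of both models overlapped for Fcgr1 in Macro-others (251.5 to 282 and 271 to 392 CPM) and Macro-MKI67 (144 to 190.0 and 171 to 339 CPM) and for Fcgr3 in CD14-PF4. In Macro-others, 7 conventional dendritic genes summed to 604 CPM in T127 (pools 434.5 to 859) and 38.3 CPM in T22 (21.2 to 70.5), and 2 epithelial genes to 610.1 CPM (396 to 684) and 49.3 CPM (30.8 to 77.6). Classical monocyte genes summed to 850 CPM in T127 (576 to 1163) and 91.6 CPM in T22 (62.3 to 142), and macrophage genes to 11002 and 19142 CPM. The part of these genes in the ratios of this label was not tested. Fcgr4 was 2.66-fold higher in T22 in Macro-MKI67 (22.6 against 8.50 CPM; interval 1.83 to 3.96) but 1.57-fold higher in T127 in CD16-CDKN1C (82.5 against 52.4 CPM; 1.32 to 1.86), and in Macro-others the interval of its ratio included 1 (55.3 CPM in T22 and 53.5 CPM in T127). Fcer1g stayed within 1.2-fold in every one of these labels except CD14-IL1B, where it was 2.05-fold higher in T127.

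Counted by label, 3 of 5 members passed 2-fold toward T127 in CD16-CDKN1C, beside 12.4% of all genes, and none toward T22, beside 4.90%. In Macro-MKI67, 2 of 5 passed toward T127, beside 6.61%. Fcgr4 passed toward T22, beside 5.39%, but with 8.50 CPM in T127 it reached the 10 CPM mean only through T22. No weight is put on that call. In Macro-others, Fcgr2b alone passed toward T127, beside 9.43%, and no member toward T22, beside 5.29%. In CD14-PF4, 3 of 5 passed toward T127, beside 8.65%, and none toward T22, beside 9.71%. In CD14-IL1B, 4 members reached 10 CPM and all 4 passed toward T127, beside 7.07%, with none toward T22, beside 3.26%. In NK cells only Fcgr3 and Fcer1g reached 10 CPM and neither passed 2-fold, beside 3.40% of genes toward T127 and 4.80% toward T22.

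**Figure D3:**
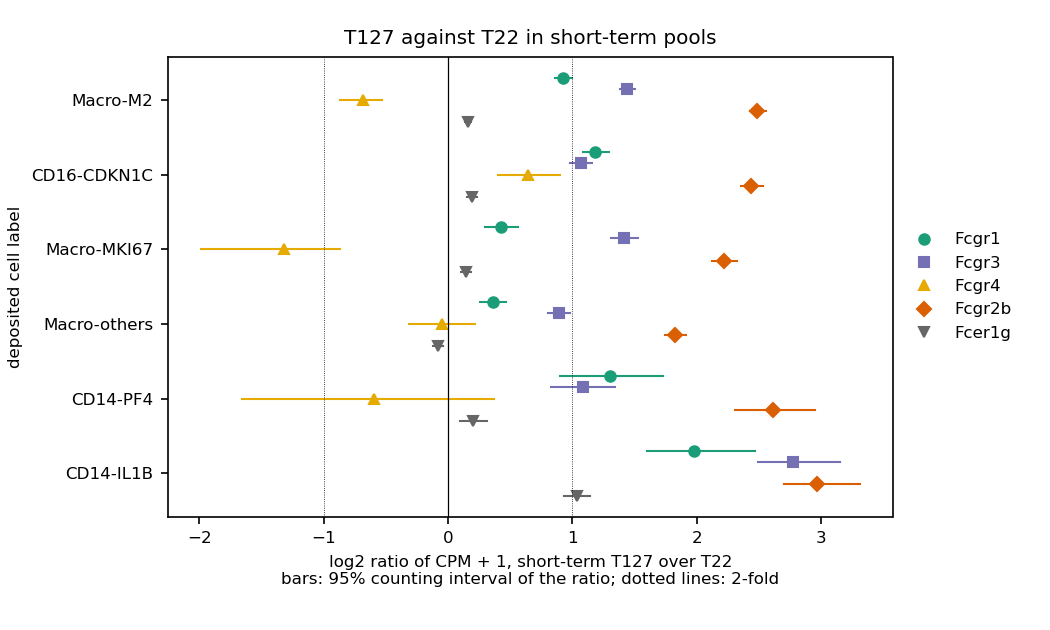
Log2 ratio of CPM + 1, short-term T127 over short-term T22 (horizontal axis; right is higher in T127), for each member in the 6 myeloid labels, with 95% counting intervals as bars and 2-fold as dotted lines; members under 10 CPM are not drawn. Fcgr2b is the rightmost member in every label, and Fcgr4 lies left of 0 in Macro-M2 and Macro-MKI67 and right of 0 in CD16-CDKN1C.

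These levels set the activating share apart between the models. In T22 Macro-M2 it was 71.5% (interval 70.4 to 72.5; pools 69.7 to 73.1) and in T127 Macro-M2 49.2% (48.7 to 49.7; pools 47.0 to 51.6). Long-term Macro-M2, which mixes both models and other treatment times, had 62.6%. In CD16-CDKN1C the shares were 78.0% (pools 76.2 to 79.2) in T22 and 58.0% (pools 55.5 to 59.6) in T127. In Macro-others they were 76.0% and 57.7%, and in Macro-MKI67 65.5% and 44.2%, the latter the lowest share of any macrophage label. The order of the macrophage labels was nevertheless alike in both models, with CD16-CDKN1C and Macro-others above Macro-M2 and Macro-M2 above Macro-MKI67. Fcgr2b and Fcgr3 encode closely related extracellular domains, and reads that match both genes equally would be lost to counting, which was not examined here.

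The receptors were also counted in single cells. After each cell of at least 3000 UMIs was thinned at random to 3000 UMIs, Fcgr2b was detected in 44.6% of T22 Macro-M2 cells (interval 40.8 to 48.5) and 89.9% of T127 Macro-M2 cells (88.1 to 91.6). In T127, 66.9% of cells had 3 or more Fcgr2b UMIs of 3000, against 7.31% in T22 and 28.5% in the long-term pools. Cells with both activating and inhibitory UMIs made up 84.7% of T127 Macro-M2 cells (82.5 to 86.7), 33.7% of T22 cells (30.2 to 37.4) and 62.7% of long-term cells (61.1 to 64.3). Cells with activating UMIs alone made up 8.52%, 43.7% and 28.5% in the same order, and cells with Fcgr2b alone 5.28%, 10.9% and 5.01%. These shares depend on how often each kind of receptor was detected at all. Whether both occurred together more often than that was not tested. No UMI of the 4 receptors was seen in 1.53% of T127 and 11.6% of T22 cells at this depth.

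**Figure D4:**
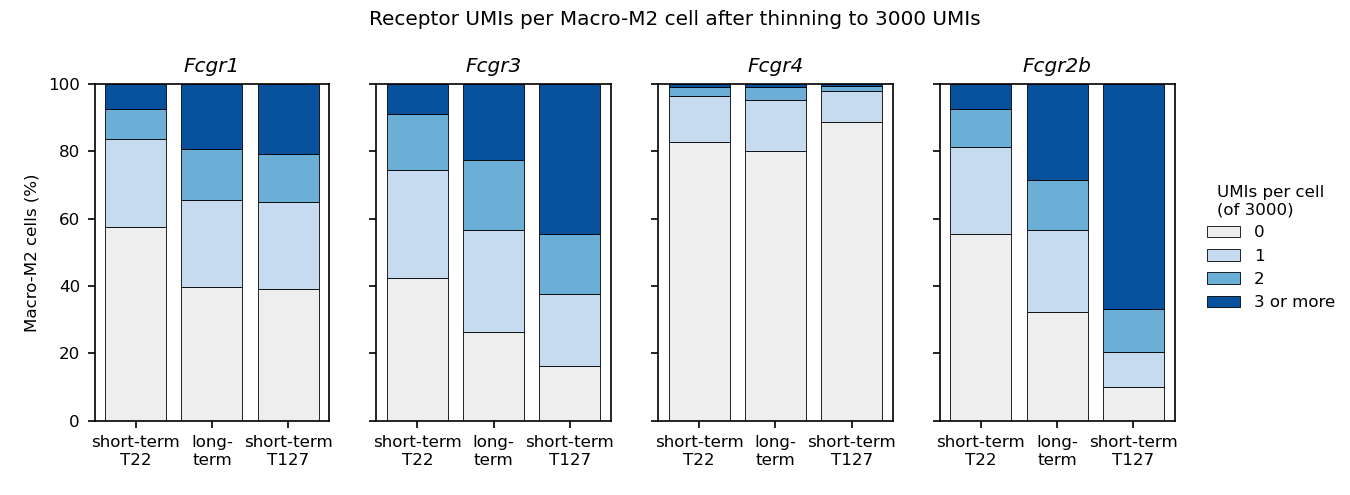
Share of Macro-M2 cells (%, vertical axis) with 0, 1, 2 or 3 and more UMIs of each receptor gene after thinning to 3000 UMIs, in 670 T22, 3510 long-term and 1174 T127 cells. The darkest block, 3 or more UMIs, takes 66.9% of T127 cells for Fcgr2b and under 1% of cells for Fcgr4 in each group.

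The label CD16-CDKN1C names a human nonclassical monocyte, the cell in which CD16a is high, and its markers and Fcgr4 were examined for that reason. Cdkn1c itself was at 1.93 CPM in long-term CD16-CDKN1C cells and at 1.91 CPM in the other monocyte and macrophage labels summed, and in T127 only 2 UMIs were seen. Macrophage genes dominated, with the complement gene C1qa at 8512 CPM in long-term cells, against 8632 CPM in Macro-M2. Some nonclassical markers were higher than in Macro-M2: in long-term cells Ace stood at 19.4 against 2.87 CPM, Cd300e at 12.5 against 4.90 CPM and Adgre4 at 14.1 against 2.75 CPM. In T127 these markers and Treml4 were further above Macro-M2, with Ace at 53.5 against 4.99 CPM, Treml4 at 46.5 against 6.33 CPM, Cd300e at 50.5 against 14.2 CPM and Adgre4 at 42.5 against 4.78 CPM. Spn, Itgal and Eno3 were higher there too, but Nr4a1 was lower (499.9 against 621.8 CPM), as was Cdkn1c (1.00 against 1.69 CPM). The 9 nonclassical markers, all detected, summed to 367 CPM in long-term, 419.9 CPM in T22 and 847 CPM in T127 CD16-CDKN1C cells, the highest sum of the myeloid labels in the long-term and T127 groups but the lowest but one in T22, where the other labels ran from 411.5 CPM (Macro-M1) to 1076 CPM (CD14-PF4). Classical monocyte genes, 5 of 5 detected, summed to 3166 CPM in T127 CD16-CDKN1C (pools 2848 to 3662), beside 2365 CPM in T127 Macro-M2, and to 426 CPM in T22. Macrophage, classical monocyte and some nonclassical genes were thus present together, Cdkn1c was not raised, and the label is kept as a name only. Of the CD16-CDKN1C cells, 1981 of 5979 long-term and 2562 of 4205 T22 cells had under 3000 UMIs, with median depths of 4706 and 2407 UMIs. Macro-M2 was deeper, with 57 of 3567 and 0 of 670 cells under 3000 UMIs and medians of 11168 and 13221 UMIs. The part of depth in this label was not tested.

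Fcgr4 was not set apart in long-term CD16-CDKN1C cells. Its level was 68.9 CPM (interval 66.1 to 71.7) against 70.5 CPM in the other 6 labels summed, a ratio of 0.977 (0.932 to 1.02), and the ratio was below 1 in 5 of 8 pools. Macro-M2 (86.6 CPM) and Macro-M1 (75.3 CPM) were higher, although neighbouring pool ranges overlapped. In T22 the ratio was 1.14 (1.05 to 1.23), with 52.4 CPM in CD16-CDKN1C and 46.0 CPM in the others, and Macro-M2 was again the highest label at 63.0 CPM. In T127 CD16-CDKN1C had the highest Fcgr4 of the labels described, 82.5 CPM (70.4 to 96.1) against 30.8 CPM in the others, a ratio of 2.68 (2.25 to 3.18). Single pools of these 402 T127 cells held as few as 26 Fcgr4 UMIs, so they are not given one by one. Pool ranges overlapped between these cells and Macro-others, the next label (53.5 CPM). After thinning to 3000 UMIs, Fcgr4 was detected in 19.1% of T127 CD16-CDKN1C cells (14.7 to 24.1). It was detected in 18.9% of T127 Macro-others cells (13.8 to 25.0) and 11.3% of T127 Macro-M2 cells (9.57 to 13.3). Of the T127 myeloid labels CD16-CDKN1C also had the highest Ace, Treml4, Cd300e, Adgre4 and Eno3. It did not have the highest level of the rest of the 9 nonclassical markers. Its Cdkn1c was the lowest of these labels (1.00 CPM from 2 UMIs). Nr4a1 was exceeded only by Macro-M2 (499.9 against 621.8 CPM). Itgal (107.5 against 127.7 CPM) and Spn (5.00 against 5.49 CPM) were exceeded only by CD14-PF4. The part of the classical monocyte genes of CD16-CDKN1C in the Fcgr4 level was not tested.

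Fcgr4 was then set beside the number of nonclassical markers seen in a cell, with all 9 markers of the list. Among long-term monocytes and macrophages thinned to 3000 UMIs, Fcgr4 was at 73.9 CPM (70.3 to 77.7) in cells without a marker UMI, 70.5 CPM (66.4 to 74.8) with 1 marker and 75.6 CPM (66.9 to 85.2) with 2 or more. In T22 it was 60.3 CPM (54.6 to 66.4), 51.2 CPM (45.8 to 57.2) and 47.5 CPM (39.2 to 57.1), lower with more markers but with overlapping intervals, and in T127 58.0 CPM (46.5 to 71.4), 43.6 CPM (37.0 to 51.2) and 55.6 CPM (43.2 to 70.3). Nr4a1, Itgal and Eno3 are widely expressed, and after these values were seen the count was repeated with the other 6 markers. Fcgr4 then stood at 72.1 CPM (69.4 to 74.9), 77.7 CPM (66.9 to 89.8) and 95.8 CPM in the long-term cells, the last from 48 UMIs in 167 cells and with an interval, from 70.6 CPM upward, that overlapped that of cells without a marker. In T22 the corresponding levels were 54.9 CPM (51.0 to 58.9), 42.4 CPM and 94.0 CPM (64.7 to 132, over 117 cells). The last interval lay above that of cells without a marker. In T127 the levels were 43.5 CPM (38.2 to 49.3), 100.4 CPM (75.2 to 131) and 103 CPM (54.9 to 176, over 42 cells). Both later intervals lay above that of cells without a marker. CD16-CDKN1C cells were also taken alone, of which those under 3000 UMIs are left out here and the rest count equally. In T127 Fcgr4 was 87.2 CPM (66.0 to 113) without any of the 6 markers, 108 CPM (57.7 to 185) with 1 and 120.0 CPM (54.9 to 228) with 2 or more, and the intervals overlapped. In the long-term cells the levels were 68.0, 75.9 and 88.6 CPM, again with overlapping intervals. In T22 they were 49.1 CPM (42.7 to 56.1), 40.0 CPM (22.4 to 66.0) and 119.8 CPM (75.9 to 180). The last rests on 23 UMIs in 64 cells, and its interval lay above the other 2.

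**Figure D5:**
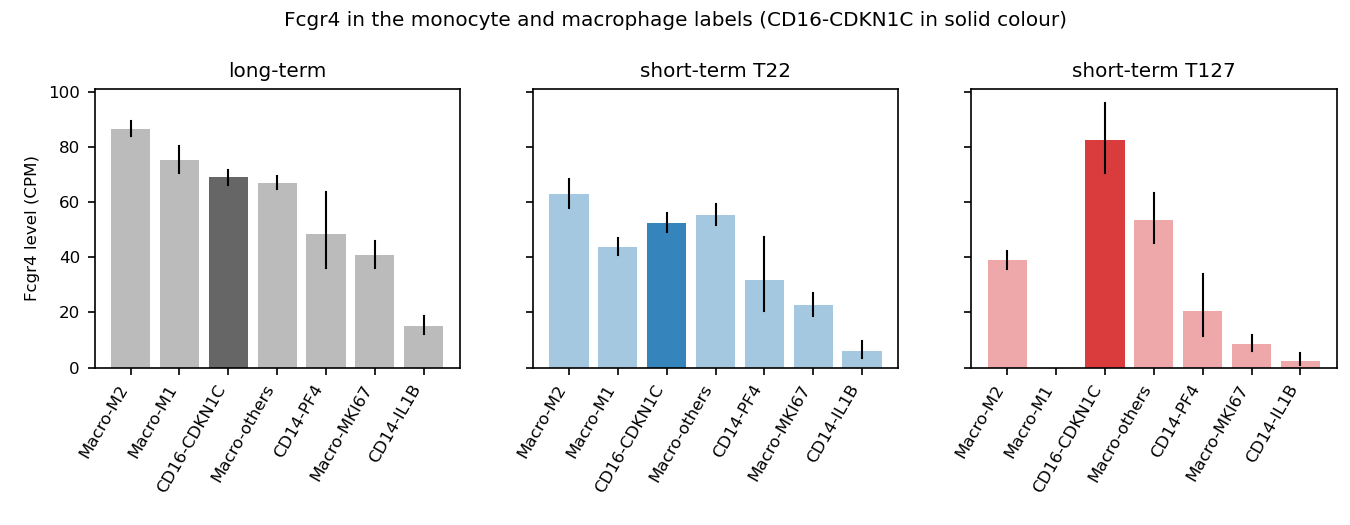
Fcgr4 level (CPM, vertical axis) in the monocyte and macrophage labels of each group, with 95% counting intervals as black lines and CD16-CDKN1C in solid colour; Macro-M1 is not described in T127. CD16-CDKN1C stands among the other macrophage labels in the long-term (68.9 CPM) and T22 (52.4 CPM) groups and is the highest bar in T127 (82.5 CPM).

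The remaining members in CD16-CDKN1C differed from the other labels by less than 1.4-fold in each group. Fcgr2b was lower throughout, with ratios of 0.911 (0.895 to 0.928) in the long-term pools, 0.744 (0.712 to 0.777) in T22 and 0.787 (0.749 to 0.827) in T127, and it was lower in 4 of 4 pools of each short-term model and in 6 of 8 long-term pools. Fcer1g was slightly higher throughout, by 1.06-fold, 1.22-fold and 1.26-fold.

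The CD14 labels held marker UMIs of other cell types as well. In the long-term pools 2 epithelial genes summed to 1004 CPM in CD14-IL1B and 1243 CPM in CD14-PF4, against 100.3 CPM in Macro-M2, and in CD14-PF4 to 829.8 CPM in T22 and 606 CPM in T127. In CD14-IL1B, 7 markers of conventional dendritic cells summed to 1293 CPM in T22 (pools 1115 to 1530) and 1217 CPM in T127 (pools 1105 to 1568), against 649 CPM in the long-term pools, and all 7 were detected in each group. This label had the lowest Fcgr1, Fcgr3 and Fcgr2b of the myeloid labels in both short-term models, down to 21.1, 31.8 and 36.8 CPM in T22. Split after these values were seen, the 129 T22 cells with a UMI of a dendritic marker held 8.89 CPM of Fcgr3 and 20.1 CPM of Fcgr2b, and the 14 cells without one held 311 and 240.2 CPM, beside 300.2 and 240.4 CPM in T22 Macro-M2. In T127 the 124 cells with a dendritic marker still held 188 CPM of Fcgr3 and 198 CPM of Fcgr2b, and the 20 cells without one 585 and 1256 CPM. In CD14-PF4, 6 neutrophil genes summed to 3909 CPM in T22, with single pools from 55.1 to 10479 CPM, and to 1192 CPM in T127 (14.6 to 2167). Its Fcgr4 was 31.7 CPM in T22, 20.6 CPM in T127 and 48.5 CPM in the long-term pools, and without long-term pool 6 the last became 31.1 CPM. The part of these other cells in the levels of both labels was not tested further.

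NK cells are known for a single Fc gamma receptor, Fcgr3, by which they kill antibody-coated cells, and it made up 78.3% of the receptor UMIs of long-term, 86.8% of T22 and 98.1% of T127 NK cells. Its level was 44.3 CPM (35.3 to 54.9) in the 281 long-term NK cells, 28.5 CPM (25.1 to 32.1) in 1193 T22 cells and 51.0 CPM (37.9 to 67.0) in 141 T127 cells. Fcgr2b was at 6.94, 2.05 and 0.999 CPM in the same order, Fcgr1 at 3.20 and 1.83 CPM in the long-term and T22 cells, and neither Fcgr1 nor Fcgr4 had a UMI in T127, where 3 counts would be 3.00 CPM. Fcer1g was abundant, at 1655, 1236 and 770 CPM. The T22 pools of Fcer1g (1226 to 1248 CPM) lay above those of T127 (628 to 992 CPM), the reverse of Macro-M2. Other marker lists differed between these NK cells, with T cell genes at 298 CPM in T22 and 112 CPM in T127, mast cell genes at 23.4 and 143 CPM and classical monocyte genes at 300.4 and 1311 CPM, and their part was not tested. NK marker genes, 5 of 5 detected in each group, summed to 2329, 2429 and 2667 CPM in the long-term, T22 and T127 NK cells.

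At 3000 UMIs per cell, Fcgr3 was detected in 9.13% of long-term NK cells (5.87 to 13.4), 9.23% of T22 NK cells (7.63 to 11.0) and 15.3% of T127 NK cells (9.58 to 22.6). T cells, set beside them as background and with the gamma delta label Tgd among them, showed 4.36% (3.09 to 5.96), 1.19% (0.848 to 1.62) and 3.41% (1.38 to 6.91). The long-term intervals of NK and T cells thus overlapped slightly and the short-term ones lay apart. Without thinning, at median depths of 5248, 6543 and 6064 UMIs, Fcgr3 was detected in 20.6%, 17.8% and 26.2% of NK cells. The median depths of T cells were 3286, 7077 and 3145 UMIs. Fcer1g was detected in 88.1%, 85.7% and 80.9% of thinned NK cells, against 30.9%, 17.0% and 26.3% of T cells. At this depth the lack of a UMI in most NK cells is not evidence that a cell lacks Fcgr3.

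B cells carried the inhibitory receptor. In the 309 long-term B cells Fcgr2b was at 64.6 CPM (48.1 to 84.9; 51 UMIs), Fcgr1 at 7.60 CPM (6 UMIs), Fcgr3 at 10.1 CPM (8 UMIs) and Fcgr4 had no UMI, where 3 counts would be 3.80 CPM. These cells were shallow, with a median of 2082 UMIs, and were thinned to 1000 UMIs, as 265 had under 3000. At that depth Fcgr2b was detected in 7.12% of B cells (4.51 to 10.6) and in 1.55% of T cells (0.997 to 2.30), and Fcgr3 in 1.62% and 1.55%. The first pair of intervals lies apart and the second overlaps. Fcgr3 in B cells was 5.25 CPM in cells of at least 1000 genes and 3.85 CPM in cells of at least 3000 UMIs. Fcer1g was low, at 83.6 CPM, below the 316 CPM of T cells, and in cells of at least 3000 UMIs it was 46.1 CPM.

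pDC held Fcgr2b at 50.6 CPM (37.2 to 67.3) in the long-term pools and 49.4 CPM (36.9 to 64.8) in T127, with Fcgr3 at 9.69 and 2.85 CPM. These levels rest on 47 and 52 UMIs, and pDC were not described in T22. At 3000 UMIs, 11.2% (6.81 to 17.2) and 13.5% (8.22 to 20.5) of pDC had an Fcgr2b UMI. Fcer1g stood at 1160 and 798 CPM. Long-term Fcgr1 in pDC, 19.4 CPM from 18 UMIs, rested on pool 6 and was 6.57 CPM without it.

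T cells and malignant cells are not known to carry these receptors as a class and give the level at which their UMIs appeared in other cells. In malignant cells the 4 receptors ranged from 0.588 to 2.55 CPM in the long-term pools and from 0.170 to 0.812 CPM in the short-term pools, with Fcer1g at 26.9, 10.7 and 3.02 CPM in the long-term, T22 and T127 groups. After thinning, 0.583% of long-term malignant cells had an Fcgr2b UMI and 0.816% an Fcgr3 UMI, from a median depth of 18462 UMIs. The activating share of these few UMIs was 67.4% (64.4 to 70.3) in long-term malignant cells, 80.7% (72.1 to 87.7) in T22 and 61.3% (56.0 to 66.4) in T127, beside 65.1%, 72.9% and 49.9% in the monocytes and macrophages of the same groups. The T127 interval lay above the macrophage value, and Fcgr4 made up 21.2% of those 354 UMIs against 1.64% in the macrophages. T cells held 15.4, 4.05 and 8.23 CPM of Fcgr3, which is more than malignant cells in each group.

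The genes around these receptors were taken from lists of the pathway. Among 13 other Fc receptors, 3 reached 10 CPM in short-term Macro-M2 cells, and of these 2 passed 2-fold toward T127 and none toward T22, beside 6.94% and 5.03% of all genes. The same shares of all genes stand behind the counts of signalling genes. Of the 2, Fcrla reached 10 CPM only through T127, where it is high, so its place in the count depends on that filter. Fcrla, an intracellular Fc receptor-like protein known from B cells, stood at 104 CPM in T127 Macro-M2 (99.0 to 110; pools 93.1 to 115) and at 0.769 CPM in T22 (7 UMIs; pools 0.413 to 1.33), a 136-fold difference (65.6 to 338). It was 31.3 CPM in long-term Macro-M2, 243 CPM in long-term B cells and 387.5 CPM in pDC. In each of CD16-CDKN1C, Macro-MKI67 and Macro-others, Fcrla was likewise higher in T127 (40.0, 54.7 and 34.4 CPM) than in T22 (0.560, 0.380 and 0.211 CPM). These T22 levels rest on only 9, 2 and 3 UMIs, so no ratio is given. Fcgrt, the neonatal Fc receptor that recycles IgG, was 2.41-fold higher in T127 Macro-M2 (168 against 69.8 CPM; 2.21 to 2.63), and Fcrls, a macrophage Fc receptor-like gene, differed by 1.13-fold.

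Signalling genes differed in both directions. Of 14 activating signalling genes, all of at least 10 CPM in Macro-M2, those that passed 2-fold included Lyn, a Src kinase that phosphorylates ITAM and ITIM motifs, toward T22 and Fyn, another Src kinase, toward T127. Lyn stood at 481 CPM in T22 (pools 456 to 511) and 172 CPM in T127 (pools 129 to 206), and Fyn at 27.9 and 56.9 CPM. Syk, the kinase that binds phosphorylated ITAM motifs, stood at 113 and 157 CPM and Vav1 at 93.1 and 86.4 CPM. Of 11 inhibitory signalling genes, only the adaptor Dok2 passed 2-fold, with 64.7 CPM in T22 and 235 CPM in T127 (3.64-fold, 3.33 to 3.98). Inpp5d, which encodes the SHIP-1 phosphatase recruited by Fcgr2b, was 207 CPM in T22 and 139 CPM in T127, and Ptpn6 (SHP-1) 198 and 155 CPM. The median log2 ratio of T22 over T127 was 0.12 for the activating and 0.20 for the inhibitory list, beside -0.10 over all genes of at least 10 CPM. Of the 4 ITAM chains, Tyrobp stood at 3812 CPM in T22 and 2910 CPM in T127 and Cd79b at 16.1 and 11.6 CPM, and the other two did not reach 10 CPM.

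RNA of IgG, the ligand of these receptors, was highest in the B cell label. In the long-term pools Ighg1 was at 4805 CPM in B cells, 1024 CPM in NK cells, 377 CPM in pDC and 12.7 CPM in monocytes and macrophages. Plasma cell markers, 3 of 3 detected, summed to 1879 CPM in B cells, 1280 CPM in pDC (pools 446.9 to 6390) and 454.5 CPM in NK cells (pools 0 to 2566). Their part in the NK and pDC values was not tested. Of 8 antibody genes only Ighm reached 10 CPM in short-term Macro-M2 cells, at 212 CPM in T22 and 29.1 CPM in T127.

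Likeness to other genes was measured over 52 combinations of label and group of at least 50 cells, as the Pearson correlation of log2(CPM + 1) among 11024 genes that reach 20 CPM in at least one of them. The combinations share libraries and depth, and most of the pattern is myeloid against other cells, so r is a description only. Fcgr1 was most like C5ar1 (r = 0.975), C3ar1 (0.973), Clec4a3, Lyz2 and Trem2. Fcgr4 was most like Trem2 (0.967), Ms4a4a, Adgre1, Klra2 and C3ar1. Fcgr3 was most like Osm (0.942), Clec4n, Lyz2, Gpr141 and Itgam. Fcgr2b was most like Fcgr1 (0.969), followed by Cfp, Clec4n, Lyz2 and Il1rn. Fcer1g was most like Tyrobp (0.978), the other ITAM chain of myeloid and NK cells, followed by Scimp, Ctss, Lat2 and Plek. Among the receptors themselves, Fcgr4 and Fcgr2b had the lowest r (0.873).

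C5ar1, the receptor of the complement fragment C5a on which the study centred, had its highest level in Macro-M2 in each group (234 CPM long-term, 153 CPM in T22 and 201 CPM in T127). Its pools overlapped those of CD16-CDKN1C in the long-term group (177 to 296 against 131 to 252.5 CPM) and in T127 (196 to 206.5 against 155 to 208 CPM). In Macro-M2 C5ar1 was 1.31-fold higher in T127 than in T22 (1.23 to 1.40), beside 1.90-fold for Fcgr1. In CD16-CDKN1C the C5ar1 level was 2.59-fold higher in T127 (2.30 to 2.91), beside 2.28-fold for Fcgr1, and in Macro-MKI67 2.10-fold (1.80 to 2.46), beside 1.35-fold. In the other myeloid labels held by both models the interval of the C5ar1 ratio included 1. T127 over T22 was 1.11 (0.971 to 1.27) in Macro-others, 0.879 (0.624 to 1.24) in CD14-PF4 and 0.692 (0.412 to 1.14) in CD14-IL1B. Fcgr1 was 1.29-fold, 2.47-fold and 4.07-fold higher in T127 there. With the 7 myeloid labels summed, C5ar1 was 1.88-fold higher (1.80 to 1.95), beside 1.76-fold for Fcgr1. That sum mixes labels in unlike shares.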

How the data were processed

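Libraries were made with the 10x Genomics 3' v3.1 kit. The authors ran Cell Ranger 6.0.0 on GRCm38 with intronic reads counted, filtered cells on detected genes and mitochondrial share, took out Scrublet doublets, and named clusters by markers. For each of 16 pools they deposited raw UMI counts of 32285 genes per cell and a cluster name per cell, which were used here. A second deposited table of scaled signal was not used. The deposited labels give the organism as human, but gene symbols, strain and genome build are those of mouse.

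The genes, gene lists and comparisons were chosen with earlier results of these data known, so no list is independent evidence. UMIs were summed per label and group and given as CPM with exact Poisson intervals. Shares have Clopper-Pearson intervals and ratios conditional binomial ones, all at 95%. Log2 ratios used a pseudocount of 1 CPM. A pool range is given where every pool held at least 50 UMIs of the gene, except for marker lists, pathway genes and activating shares. Named genes were the 5 members, the 5 pathway lists, C5ar1 and, per member, the 5 genes of most like pattern; the marker genes named are from lists of cell type markers. Not every list member is reported here by name. The 2-fold comparison was run on simulated data, and the outcome is not reported here. Doublets were not called again. Alternatives were a minimum of 1000 genes, removal of the deepest 5% of each pool's cells, every barcode copy kept, long-term pools 1 to 3 left out, a minimum of 3000 UMIs, the mean of per-cell CPM, a pseudocount of 10 CPM, other thinning depths, other expression minimums and each pool left out. The split of CD14-IL1B, the shorter nonclassical list and the sum of 7 labels were added after seeing the data. Software was scipy 1.17.1, pandas 2.3.3, numpy 2.4.6 and matplotlib 3.10.9 under Python 3.11.15.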

Additional observations from a re-analysis of the deposited data

Results flagged for a closer look

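For 80 combinations of gene, label and group in which every pool held at least 50 UMIs, the pools were searched for one that stands far from the others, which chance alone does in about 1 of 20 groups, and 4 pools were found. Fcer1g in T22 CD14-IL1B was 566.5 CPM in pool 3 (512.7 to 624.5), with the next pool at 380.6 CPM. Fcgr1 in T127 Macro-MKI67 was 339.2 CPM in pool 3 (306.6 to 374.4), with the next at 185.2 CPM. Fcgr3 in long-term Macro-M1 was 452.9 CPM in pool 6 (423.1 to 484.2), with the next at 403.4 CPM. Fcgr4 in long-term Macro-others was 87.16 CPM in pool 8 (78.99 to 95.94), with the next at 70.15 CPM. In 5 myeloid labels set against Macro-M2, no activating to inhibitory ratio lay above Macro-M2 in every pool of one model and below it in every pool of the other.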

How the results depend on the processing

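None of 21 log2 ratios of 2-fold or more changed sign under any alternative, and 4 of 34 smaller ones did. The Fcgr2b log2 ratio of T22 over T127 in Macro-M2, -2.48, ranged from -2.51 to -2.45 with single pools left out and from -2.54 to -2.42 under the other alternatives. The Fcgr3 ratio, -1.44, became -1.26 when all 7 myeloid labels were summed, an alternative chosen after seeing the data, and Fcgr1 ranged from -1.07 to -0.81, so that it passes 2-fold under some. The Fcgr4 log2 ratio of CD16-CDKN1C over the other myeloid labels in T127, 1.39, was 1.06 as the mean of per-cell CPM and 1.18 with a pseudocount of 10 CPM, and ranged from 1.30 to 1.49 with single pools left out. The activating share of long-term B cells, 21.5%, was 7.14% in cells of at least 3000 UMIs, and 17.4% to 24.0% with single pools left out. With every barcode copy kept or long-term pools 1 to 3 left out, none of 11 long-term activating shares and none of 5 long-term ratios of CD16-CDKN1C moved beyond the pool spread, and the Fcgr4 ratio, -0.03, stayed between -0.08 and -0.03 over all alternatives that leave out no single pool. As the mean of per-cell CPM, 6 activating shares moved beyond the pool spread and 23 did not, as did 6 ratios of CD16-CDKN1C against 9, 6 ratios of T22 over T127 against 34 and 33 levels against 112. Shares of cells with a UMI follow the depth by construction: 119 of 140 moved out of their interval at 1000 UMIs and 97 without thinning. With a minimum of 1 or 50 CPM in place of 10, 7.31% or 8.50% of genes passed 2-fold toward T127 in Macro-M2 and 7.33% or 5.14% toward T22. No paired analysis was possible because no value comes from a test and pools of the 2 models share only a number. Depth limits Fcgr4 in NK cells, B cells and pDC, where counts are at most 4 UMIs.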
